A study of Mus musculus with 6 samples.

Results

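The retinoid genes followed here encode 5 nuclear receptors for vitamin A derivatives and 4 proteins that bind or convert these molecules. They were taken as a list of 9 symbols, *Rara*, *Rarb*, *Rarg*, *Rxra*, *Rxrb*, *Crabp1*, *Crabp2*, *Rbp2* and *Dhrs3*, out of 23366 genes in the count tables, and all 9 were found. Of these, 8 had enough reads to be tested, among 12501 tested genes. RNA-sequencing was performed at embryonic day 13.5 (E13.5) on epithelial cells of the mouse small intestine, sorted for the epithelial surface protein EpCAM, with 500 cells in each library. The genotype of the 3 mutant libraries was *Shh*-cre-egfp:*Tcf7l1* lox/lox, in which Cre recombinase, expressed from the *Shh* locus, removes a floxed exon of *Tcf7l1* from the gut epithelium. The 3 control libraries came from wild type embryos, which are not described as carrying Cre, and neither group was treated. No genotype with Cre and intact *Tcf7l1* was analysed here, and no allele is described as shared by both groups.

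Vitamin A circulates as retinol, which cells esterify for storage or oxidise in a pair of steps, first to retinaldehyde and then to retinoic acid. Retinoic acid binds RAR receptors, which sit on DNA as dimers with RXR receptors and switch target genes from repression to activation. CYP26 enzymes destroy retinoic acid, and several genes that limit the signal are themselves activated by it. The intestinal epithelium takes up dietary vitamin A after birth, and in the embryo retinoic acid from neighbouring tissue helps to pattern the gut tube.

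In the wild type epithelium all receptor genes of the list were detected, with *Rara* the highest of them, whereas the cellular retinoic acid binding protein genes were close to silent. In the mutants *Rara*, *Rarg*, *Rxra*, *Rxrb* and the retinaldehyde reductase gene *Dhrs3* were downregulated, to between 42.2% and 69.4% of the wild type level. *Rarb*, *Rbp2* and *Crabp2* did not pass the test. Outside the list, the retinol esterification gene *Lrat* rose 13.8-fold and the retinaldehyde dehydrogenase gene *Aldh1a1* 4.10-fold.

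The promoters of *Rarb* and *Cyp26a1* are shown because each carries a direct repeat of the receptor half-site with a spacer of 5 bases, called DR5, the arrangement that RAR–RXR dimers are known to bind. Promoter windows of 300 bases, from 250 before to 50 after an annotated start, came from RefSeq on GRCm38.p6 and were searched on both strands. A half-site was read as AGGTCA. The related forms AGTTCA and also GGGTCA were accepted. The last accepted form was GGTTCA. The 250 bases before the start are shown 5′ to 3′ on the gene's strand, for *Rarb* (minus strand, chr14:16575477-16575726) and *Cyp26a1* (plus strand, chr19:37697558-37697807), with the repeat in capitals. They are followed by *Rarg*, the called member with the largest fall, at the start with a half-site in capitals (minus strand, chr15:102257523-102257772), and by *Lrat*, the listed pathway gene with the largest rise (minus strand, chr3:82903975-82904224), in which none of the motifs was found.
Rarb: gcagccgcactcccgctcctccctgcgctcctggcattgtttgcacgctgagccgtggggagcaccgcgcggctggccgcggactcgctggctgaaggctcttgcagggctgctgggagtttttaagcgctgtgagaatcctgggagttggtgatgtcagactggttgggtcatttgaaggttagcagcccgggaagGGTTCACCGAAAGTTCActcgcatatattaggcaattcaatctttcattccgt
Cyp26a1: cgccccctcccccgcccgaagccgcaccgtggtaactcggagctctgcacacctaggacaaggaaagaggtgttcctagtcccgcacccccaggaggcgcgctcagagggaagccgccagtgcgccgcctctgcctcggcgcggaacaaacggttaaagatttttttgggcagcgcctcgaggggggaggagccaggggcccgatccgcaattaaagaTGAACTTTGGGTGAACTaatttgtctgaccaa
Rarg: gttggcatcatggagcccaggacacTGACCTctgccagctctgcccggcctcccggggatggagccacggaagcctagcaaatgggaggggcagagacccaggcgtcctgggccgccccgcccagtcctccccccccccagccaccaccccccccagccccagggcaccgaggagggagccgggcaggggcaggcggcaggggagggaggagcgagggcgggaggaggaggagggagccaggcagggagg
Lrat: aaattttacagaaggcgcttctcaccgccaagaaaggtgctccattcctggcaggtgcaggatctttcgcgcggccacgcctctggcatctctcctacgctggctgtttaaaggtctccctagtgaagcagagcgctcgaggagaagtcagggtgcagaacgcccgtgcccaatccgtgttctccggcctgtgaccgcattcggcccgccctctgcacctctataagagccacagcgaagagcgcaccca

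The *Rarb* repeat runs from base -53 to -37 and that of *Cyp26a1* from -32 to -16, where -1 is the last base before the annotated start. Of 32851 windows of the same length in the table, 0.0974% held a DR5 repeat. The repeats DR1 and DR2, with shorter spacers, were in 0.222% and 0.268% of windows and in none of the members' windows. The table held 16 windows of 8 members, without *Crabp2*. The half-site AGGTCA occurred in 4 of the 16, in *Rara*, *Rarg*, *Rxra* and *Rbp2*, against 16.3% of all windows, and AGTTCA, which also lies inside both repeats shown, occurred in 3 of the 16, against 14.0%. The motif CTTTGAT, the core sequence read by TCF proteins, was in 0 of the 16 windows and in 3.73% of all windows. These matches are letters in a short window and were not measured as bound sites. Of 31 genes with a DR5 window, 3 were tested, and edgeR called 0 of them, with 2 at an unadjusted p under 0.05, a threshold that 40.3% of all tested genes passed. *Rarb* was not one of these 2 (unadjusted p = 0.43).

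Each of the 6 libraries held 18216537 to 20397278 counts. *Tcf7l1* had 363 to 475 normalized counts in the wild type, against 32.9 to 72.8 in the mutants, so the target gene was lower in every library labelled mutant. *Shh*, whose locus carries Cre in the mutants, was lower as well (log2 fold change -1.28, adjusted p = 6.1e-05). *Xist* was at 0 counts in every wild type library and at 229 to 424 in the mutants, while 4 Y-linked genes, among them *Ddx3y* and *Uty*, had 0 counts in each mutant library. Genotype, sex-linked expression and *Shh* level thus move together in all 6 libraries and cannot be told apart. Of 8 epithelial markers all were tested, and *Epcam* had 47854 to 63956 normalized counts. *Krt18*, *Cdx2* and *Cdh1* were called lower, and the summed level of the 8 was 155754 to 165879 in the wild type, against 151102 to 154981 in the mutants. The endothelial *Cdh5*, *Kdr* and *Tek* and the blood genes *Ptprc*, *Hba-a1* and *Hbb-b1* were at 0 counts in every library. Summed over 10 mesenchymal markers, most of it *Vim*, the level was 1325 to 1600 in the wild type, against 1041 to 1475 in the mutants. Among these 10, 4 were tested and 0 called. At an unadjusted edgeR p under 0.05, 2 of the tested genes were lower and 1 higher, against 21.6% and 18.6% of all tested genes. Over 4 mesothelial markers the sum was 765 to 969 in the wild type and 555 to 785 in the mutants. The 3 tested mesothelial genes did not move together. *Msln* and *Upk1b* were called lower, while *Upk3b* was higher at an unadjusted edgeR p under 0.05 and not called. Over 6 enteric neural crest markers the sum was 191 to 219.5 in the wild type and 179.8 to 377 in the mutants. The part of these markers in the results below was not tested. Fewer cells of a type and less RNA per cell cannot be told apart in sorted pools.

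Counts were scaled by edgeR's TMM method and groups were compared with its quasi-likelihood test, adjusting p-values over the 12501 genes by the Benjamini-Hochberg method. Calls needed an adjusted p under 0.01, a log2 fold change of 0.5 or more in either direction, and 50 or more normalized counts on average. Of the 8 tested members, 5 were called lower and 0 higher, and DESeq2 gave the same numbers. At an unadjusted p under 0.05, 5 were lower and 0 higher, against 21.6% lower and 18.6% higher over all tested genes. Over all tested genes 5.83% were called lower and 2.78% higher, and 7.61% were lower at an adjusted p under 0.01 whatever the size. In the 5 called members no mutant library reached a wild type library, which held in either direction for 43.0% of tested genes, with the mutant lower in 22.2% and higher in 20.8%. The median log2 fold change was -0.82 over the 8 members and -0.04 over all tested genes.

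The RAR receptors bind retinoic acid directly and come in an alpha, a beta and a gamma form. *Rara* (ENSMUSG00000037992, plus strand of chromosome 11, 98789132 to 98836256 of mm9), the most broadly expressed form, had 982, 1110 and 943 normalized counts in wild type 1, 2 and 3, against 566, 609 and 583 in mutant 1, 2 and 3. The groups did not overlap, and the mutant libraries lay close to each other. *Rara* was downregulated from 1012 ± 87.3 to 586 ± 21.5 normalized counts (means with SD over 3 libraries). The log2 fold change was -0.79, with an SE of 0.11 and an edgeR adjusted p of 1.4e-04. It stayed called without each of the 6 libraries in turn, at log2 fold changes from -0.82 to -0.72.

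*Rarg* (ENSMUSG00000001288, minus strand of chromosome 15, 102065369 to 102087948), a form known chiefly from skin and cartilage, had 131, 167 and 110 in the wild type libraries, against 56.8, 78.6 and 36.4 in the mutant libraries. Every mutant library was below every wild type library, and mutant 3 was the lowest. The log2 fold change was -1.25 (SE 0.32, adjusted p = 0.0083), the largest fall among the called members, to 42.2% of the wild type level. The call was lost without wild type 1 (adjusted p = 0.0265), wild type 2 (0.0522), mutant 1 (0.0263) or mutant 3 (0.0344), with the log2 fold change between -1.54 and -1.01 in all 6 fits. It was lost as well with a correction for gene length (0.0155).

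*Rarb* (ENSMUSG00000017491, minus strand of chromosome 14, 17263356 to 17651381) is the form whose promoter holds the DR5 repeat shown above and is widely used as a readout of retinoic acid. It had 214, 321 and 321 normalized counts in wild type 1, 2 and 3, against 254, 324 and 175 in mutant 1, 2 and 3. The groups overlapped, with the lowest value in mutant 3 and the highest in mutant 2. The log2 fold change was -0.18 (SE 0.23, adjusted p = 0.58), with a 95% interval from -0.66 to 0.30. The interval holds 0. The log2 fold change was 0.02 without mutant 3 and -0.41 without mutant 2.

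The RXR receptors are the obligate partners of RAR and of several other nuclear receptors. *Rxrb* (ENSMUSG00000039656, plus strand of chromosome 17, 34168757 to 34175338) had 473, 588 and 458 normalized counts in the wild type, against 306, 199.8 and 252 in the mutants. The highest mutant value, in mutant 1, was below the lowest wild type value. *Rxrb* was downregulated to 49.9% of wild type (log2 fold change -1.003, SE 0.18, adjusted p = 8.1e-04) and stayed called in all 6 fits that left out 1 library, with log2 fold changes from -1.16 to -0.86.

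*Rxra* (ENSMUSG00000015846, plus strand of chromosome 2, 27531960 to 27618477), the RXR form that embryonic development is known to require most, had 216, 247 and 182 in the wild type, against 106, 141 and 109 in the mutants, again without overlap. Its log2 fold change was -0.85 (SE 0.22, adjusted p = 0.0090), close to the threshold. The call was kept without wild type 3 and lost in each of the other 5 fits, at adjusted p values from 0.0119 (without mutant 2) to 0.0506 (without wild type 2), and it was lost with the gene length correction (0.0134). The remaining RXR gene, *Rxrg*, had 26, 0 and 6 counts in the wild type, against 20, 0 and 0 in the mutants and was not tested.

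**Figure D1:**
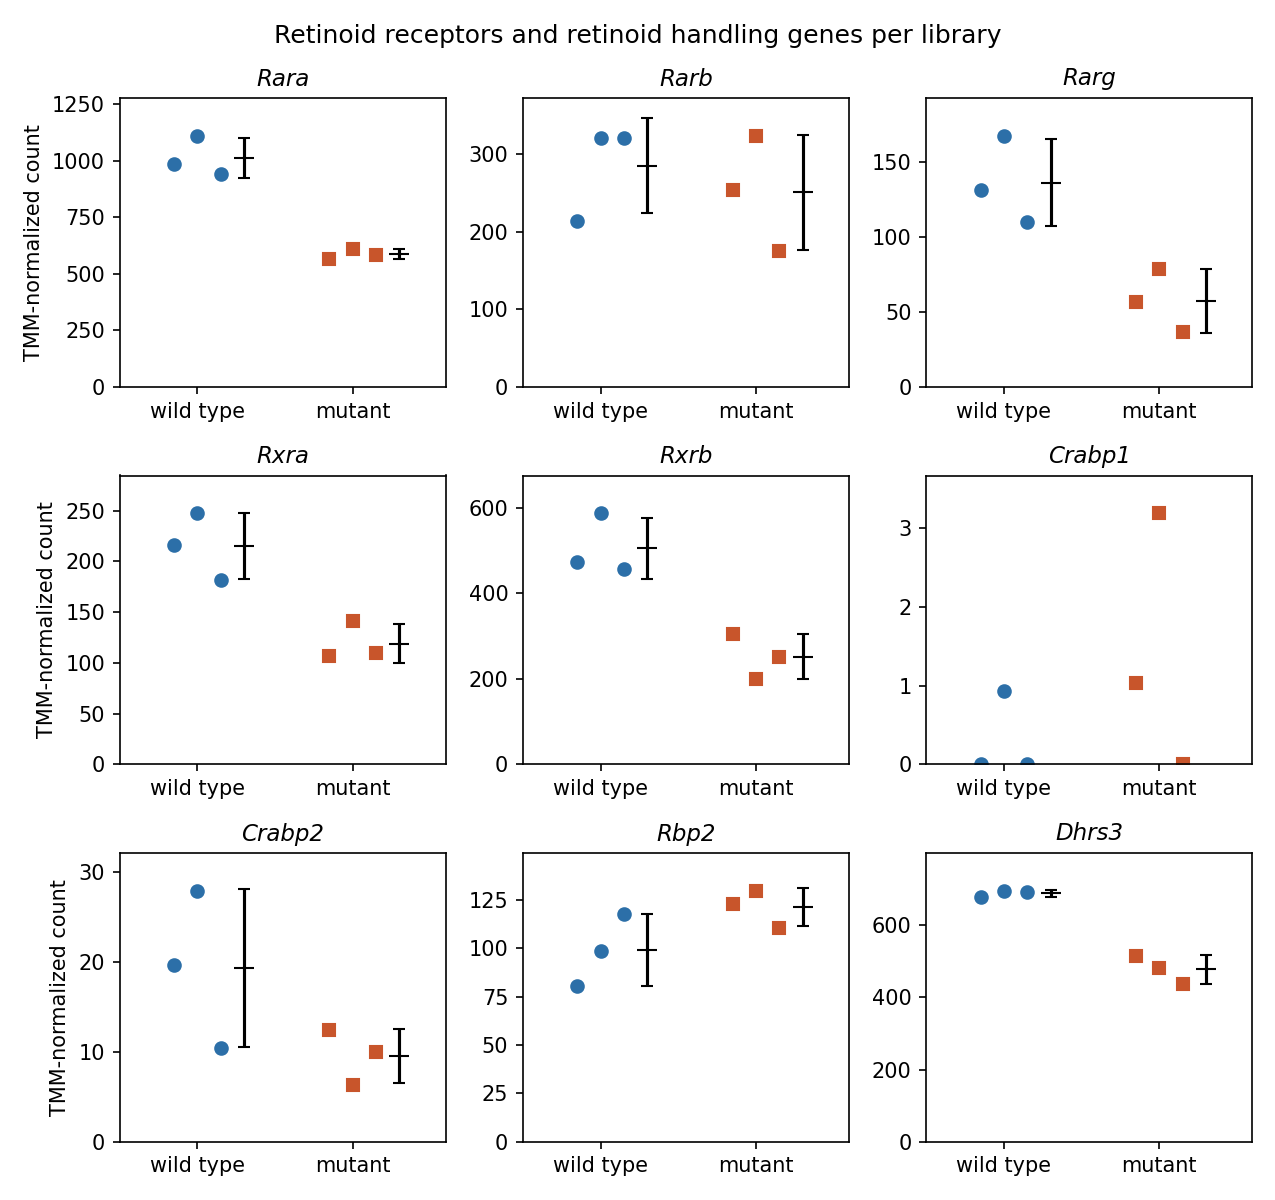
TMM-normalized counts of the 9 genes (vertical axis, from 0, with its own scale in each panel) in the 3 wild type (blue circles) and 3 mutant libraries (orange squares), with black bars for the mean and SD of each group, not drawn for *Crabp1*. The groups are apart for *Rara*, *Rarg*, *Rxra*, *Rxrb* and *Dhrs3*, whose mutant means are 42.2% to 69.4% of wild type by the fitted fold change, and overlap for *Rarb*, *Crabp2*, *Rbp2* and *Crabp1*.

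*Dhrs3* (ENSMUSG00000066026, plus strand of chromosome 4, 144482730 to 144518112) encodes the enzyme that returns retinaldehyde to retinol and so lowers the supply of retinoic acid. The wild type libraries held 677, 695 and 690 normalized counts, within a narrow range, and the mutant libraries 516, 480 and 436. *Dhrs3* was downregulated, from 688 ± 9.05 to 477 ± 39.9. Its log2 fold change of -0.53 (SE 0.12, adjusted p = 0.0057) was just past the required size. Leaving out any library but wild type 3 removed the call, at log2 fold changes from -0.58 to -0.46 and adjusted p values from 0.0121 (without mutant 1) to 0.0322 (without mutant 3).

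The cytosolic binding proteins divide the retinoids between them, retinol and retinaldehyde to RBP2 in the intestine and retinoic acid to the CRABP proteins. *Rbp2* (ENSMUSG00000032454, plus strand of chromosome 9, 98390956 to 98410190), an abundant gene of the mature enterocyte, had 80.5, 98.6 and 118 normalized counts in the wild type, against 123, 129.6 and 110 in the mutants. The groups overlapped through wild type 3 and mutant 3. The log2 fold change was 0.29 (SE 0.25, adjusted p = 0.42, 95% interval -0.25 to 0.83), moving to 0.16 without wild type 1 and 0.45 without wild type 3. The direction of *Rbp2*, the shortest of the 9 genes at 672 exon bases, turned with the gene length correction (-0.06).

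*Crabp2* (ENSMUSG00000004885, plus strand of chromosome 3, 87752588 to 87757298), which carries retinoic acid to the nucleus, had 21, 30 and 11 counts in the wild type, against 12, 6 and 9 in the mutants. These values overlap between wild type 3 and mutant 1. Its log2 fold change of -1.005 had an SE of 0.66 (adjusted p = 0.27) and moved to -0.65 without wild type 2, and its mean of 14.4 normalized counts is under that required for a call. *Crabp1* (ENSMUSG00000032291, plus strand of chromosome 9, 54612555 to 54620917), a carrier that delivers retinoic acid to breakdown, had 0, 1 and 0 counts in the wild type, against 1, 3 and 0 in the mutants. The mutant to wild type ratio was 4.54, with an exact 95% counting interval from 0.450 to 224. At this depth no difference in *Crabp1* was detectable.

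Levels were compared between genes as RPKM, reads per kilobase of annotated exon scaled to library size after TMM adjustment. In the wild type, *Dhrs3* had 12.1 ± 0.159 RPKM and *Rara* 11.4 ± 0.980, and these neighbours overlapped. *Rbp2* (7.56 ± 1.42) and *Rxrb* (7.03 ± 0.988) came next and also overlapped, followed by *Rarb* (4.45 ± 0.958). *Rxra* (2.02 ± 0.307) and *Rarg* (1.70 ± 0.363) overlapped again, and *Crabp2* (0.751 ± 0.340) and *Crabp1* (0.0199) were lowest. The order differed in the mutant libraries, where *Rbp2* (9.24 ± 0.747 RPKM) was above every library's value of *Rara* (6.58 ± 0.242), and *Rxrb* (3.50 ± 0.736) overlapped with *Rarb* (3.92 ± 1.16). Among tested genes with a known length, *Rara* and *Dhrs3* lay at percentiles 60.3 and 61.7 of wild type levels, and *Rarg* at percentile 26.4.

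The summed level of the 3 RAR genes was 17.5 ± 1.84 RPKM in the wild type, against 11.2 ± 1.58 in the mutants, and no mutant library reached the lowest wild type value. That of *Rxra* and *Rxrb* was 9.05 ± 1.27 and 4.62 ± 0.579 RPKM. Within the RAR sum, *Rara* made up 62.4% to 68.9% in the wild type, against 53.1% to 67.2% in the mutants. The share of *Rarb* was 20.9% to 29.5% and 28.1% to 39.3%, and that of *Rarg* 8.11% to 10.7% and 4.68% to 7.63%, the one share that did not overlap.

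**Figure D2:**
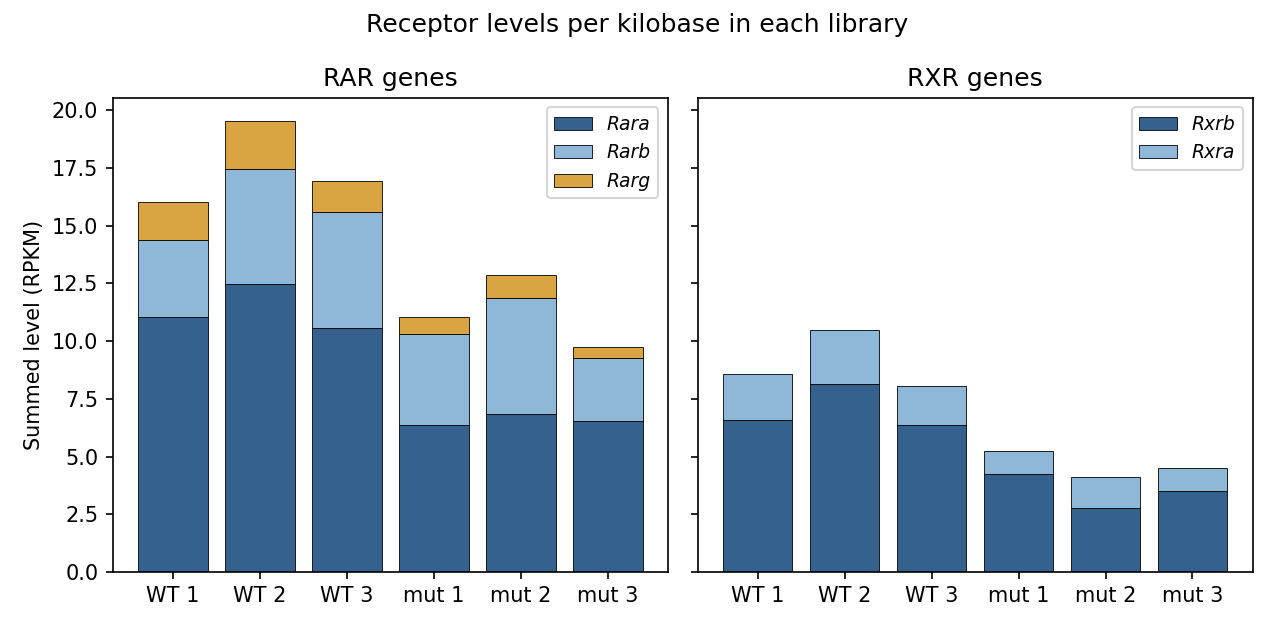
Stacked bars give the level in RPKM (vertical axis, from 0) of the RAR genes (left) and RXR genes (right) in each library, WT for wild type and mut for mutant. The RAR sum is 16.0 to 19.6 in the wild type, against 9.74 to 12.9 in the mutants, and the RXR sum 8.07 to 10.5 and 4.10 to 5.25.

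Whether members differed in their response was tested with ratios inside each library, which need no scaling between libraries, for 6 pairs with an exact 2-sided permutation test whose smallest p is 0.1. The log2 ratio of *Rarg* to *Rarb* was -1.06 ± 0.43 in the wild type, against -2.15 ± 0.11 in the mutants, without overlap (difference -1.08, exact p = 0.1, 0.3 after Benjamini-Hochberg adjustment over the 6 pairs). For *Rarb* to *Rara* the difference was 0.58 (exact p = 0.2, from 0.40 to 0.81 with 1 library left out), and for *Rarg* to *Rara* it was -0.50 (exact p = 0.2), moving to -0.22 without mutant 3 and -0.74 without mutant 2. For *Rxrb* to *Rxra* it was -0.16 (exact p = 0.8), and it was -0.39 without mutant 1 and 0.12 without mutant 2. The ratio of *Crabp2* to *Rbp2* differed by -1.22 (exact p = 0.3, from -1.73 to -0.91 with 1 library left out), and that of *Crabp1* to *Crabp2* rests on 0 to 3 counts of *Crabp1* and is not given. With 3 libraries a group, these tests could not pass 0.05.

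The remaining genes of the pathway were read from 6 lists by role, in each of which DESeq2 gave the same number of calls in each direction as edgeR. For synthesis of retinoic acid, 11 of 16 listed genes were tested, and *Aldh1a1* was called higher and none lower, with 4 higher and 0 lower at an unadjusted p under 0.05, a threshold passed by 18.6% of all tested genes upwards and 21.6% downwards. The median log2 fold change was 0.21. *Aldh1a1*, a retinaldehyde dehydrogenase, had 37.4, 19.5 and 31.3 normalized counts in the wild type, against 139, 115 and 108 in the mutants (log2 fold change 2.03, SE 0.34, adjusted p = 4.9e-04). Every mutant value was above every wild type value. Its relatives were scarce, with 26, 23 and 5 counts of *Aldh1a2* in the wild type, against 3, 27 and 11 in the mutants (log2 fold change -0.20, adjusted p = 0.87), and *Aldh1a3*, with 0 to 14 counts in a library, was not tested. *Rdh10*, the retinol dehydrogenase that embryos depend on, had 843 ± 94.0 and 989 ± 20.8 normalized counts (log2 fold change 0.23, adjusted p = 0.13). The genes with the most reads in this list were *Adh5* (0.21, adjusted p = 0.036) and *Dhrs4* (0.04, adjusted p = 0.75), given as log2 fold changes.

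For breakdown, *Cyp26b1* was the 1 tested gene of 3. It had 14, 17 and 23 counts in the wild type, against 0, 11 and 6 in the mutants (log2 fold change -1.46, SE 0.84, adjusted p = 0.21). *Cyp26a1*, whose promoter repeat is shown above, had 10, 8 and 6 counts in the wild type, against 1, 0 and 0 in the mutants. The mutant level was 4.73% of wild type, with an exact 95% counting interval from 0.115% to 29.0%. *Cyp26a1* was under the filter on low counts, and its mean of 3.92 normalized counts is under that required for a call, whatever the p-value. Without the filter, edgeR gave *Cyp26a1* an unadjusted p of 0.0249 and an adjusted p of 0.0925. Intervals cover counting error only, since reads amplified by PCR are not independent molecules.

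For uptake, storage and carriers, 12 of 17 listed genes found in the tables were tested, with 1 called higher, 0 called lower and a median log2 fold change of 0.10. At an unadjusted p under 0.05, 2 were higher and 1 lower, against 18.6% and 21.6% of all tested genes. *Lrat*, lecithin retinol acyltransferase, which esterifies retinol for storage, had 18.7, 17.7 and 11.4 normalized counts in the wild type, against 295, 177 and 193 in the mutants. The groups were far apart, with mutant 1 the highest, and the log2 fold change was 3.79 (SE 0.32, adjusted p = 6.2e-07). It was called in all 6 fits without 1 library, between 3.53 and 3.93. *Dgat1*, which can also esterify retinol, had 1031 ± 98.4 and 1435 ± 59.7 normalized counts, a log2 fold change of 0.48 (adjusted p = 0.0028), under the size required for a call.

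*Isx*, a gut homeobox gene that is known to be induced by retinoic acid and to repress vitamin A uptake genes, had 6122, 6067 and 6540 normalized counts in the wild type, against 4150, 4597 and 4642 in the mutants. These groups did not overlap, and the log2 fold change was -0.48 (SE 0.07, adjusted p = 1.8e-04), just under the size for a call, which it passed after scaling by library size alone, after the gene length correction, and without wild type 2, mutant 2 or mutant 3. The carotenoid cleavage gene *Bcmo1*, a known target of ISX, had 18.1 ± 3.75 and 37.5 ± 10.7 (log2 fold change 1.04, adjusted p = 0.14), and *Scarb1*, another, 1041 ± 82.3 and 1191 ± 13.2 (0.19, adjusted p = 0.16). *Rbp4*, which encodes the plasma carrier, had the most reads of the list beside *Isx* (5752 ± 745 and 5051 ± 310, log2 fold change -0.19, adjusted p = 0.13). *Stra6*, its receptor, had 0 to 3 counts in any library.

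**Figure D3:**
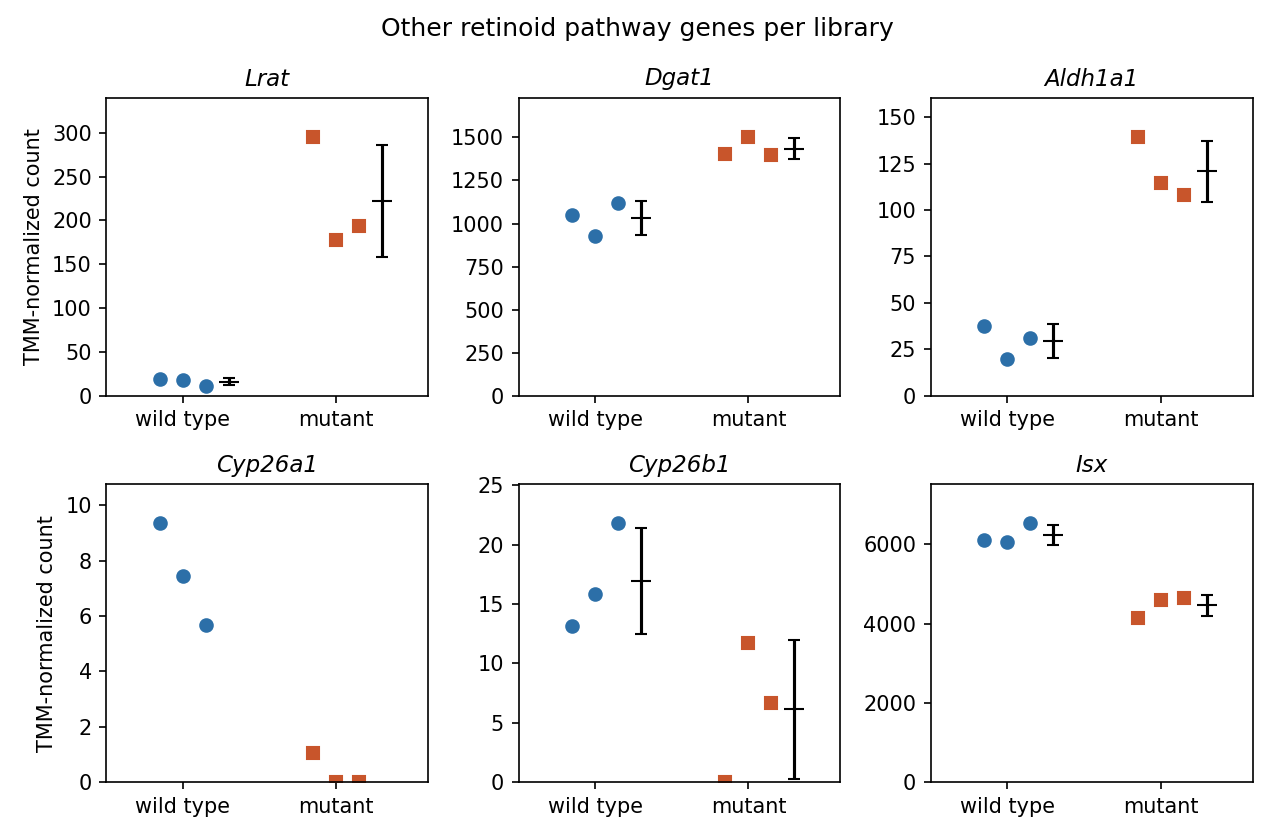
TMM-normalized counts (vertical axis, from 0, own scale in each panel) of 6 further pathway genes in wild type (blue circles) and mutant libraries (orange squares), with black bars for mean and SD, not drawn for *Cyp26a1*. *Lrat* and *Aldh1a1* are called higher, *Dgat1*, *Isx* and *Cyp26b1* are not called, and *Cyp26a1* was under the filter on low counts and not tested. The groups are apart in all 6 panels, as they are in either direction for 43.0% of all tested genes. *Cyp26b1* and *Cyp26a1* rest on few counts.

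Of 15 coregulators that RAR and RXR recruit, all were tested, with 1 called lower, 0 called higher and a median log2 fold change of -0.15. At an unadjusted p under 0.05, 5 were lower and 1 higher, beside 21.6% and 18.6% of all tested genes. *Carm1*, an arginine methyltransferase that acts as a coactivator, had 1432, 1796 and 1349 normalized counts in the wild type, against 717, 655 and 739 in the mutants (log2 fold change -1.12, SE 0.12, adjusted p = 6.8e-06). Of its exon bases, 18.02% are shared with *Yipf2*, which runs the other way, and whether reads were counted by strand is not stated. The corepressor gene *Ncor1* had 3082 ± 95.6 and 3616 ± 41.7 (log2 fold change 0.23, adjusted p = 0.023), and the corepressor deacetylase gene *Hdac3* 4320 ± 86.1 and 4270 ± 130 (-0.02, adjusted p = 0.88).

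Of 14 genes for *Rxrg* and receptors that pair with RXR, 13 were tested, with 1 called higher, 1 called lower and a median log2 fold change of 0.19. Over all tested genes 2.78% were called higher and 5.83% lower. Of the 13, 3 were higher and 3 lower at an unadjusted p under 0.05, while 18.6% and 21.6% of all tested genes were. *Nr1h4*, the bile acid receptor FXR, rose from 1054 ± 128 to 1590 ± 196 normalized counts (log2 fold change 0.59, adjusted p = 0.0015), a call lost with library size as the only scaling and with the gene length correction (both 0.49). It was lost as well without wild type 1, wild type 2, mutant 1 or mutant 2 (adjusted p 0.0104 to 0.0122). *Thrb*, a thyroid hormone receptor gene, fell from 149 ± 24.7 to 72.9 ± 15.6 (-1.03, adjusted p = 0.0094). The *Thrb* call was lost without any 1 library, at adjusted p values from 0.0102 to 0.0586, and with the gene length correction (0.0144). The genes with the most reads in this list, *Nr4a1* (-0.28, adjusted p = 0.042) and *Nr1h2* (-0.20, adjusted p = 0.13), were not called.

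Of 22 genes that are known to respond to retinoic acid in other settings, 15 were tested, with 4 called lower and 1 higher and a median log2 fold change of -0.48. At an unadjusted p under 0.05, 9 were lower and 1 higher, while 21.6% and 18.6% of all tested genes were. *Meis2*, a homeobox gene, had 238, 275 and 260 normalized counts in wild type, against 34.1, 41.4 and 8.83 in the mutants (log2 fold change -3.18, SE 0.36, adjusted p = 1.1e-05). *Meis1* (-0.62, adjusted p = 0.0025), with exons of another gene on the opposite strand over 12.1% of its exon bases, is a relative of *Meis2* and was lower too. *Pdx1*, a regulator of pancreas and duodenum, was also called lower (-2.09, adjusted p = 1.8e-05). The circadian repressor gene *Bhlhe40* was the one called higher (0.96, adjusted p = 9.5e-06). Without wild type 1 or mutant 1 the lower calls in the list were 2. The *Meis1* call was lost without wild type 1, mutant 1 or mutant 2 (adjusted p up to 0.0160). *Isx*, described above, had the most reads of this list.

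**Figure D4:**
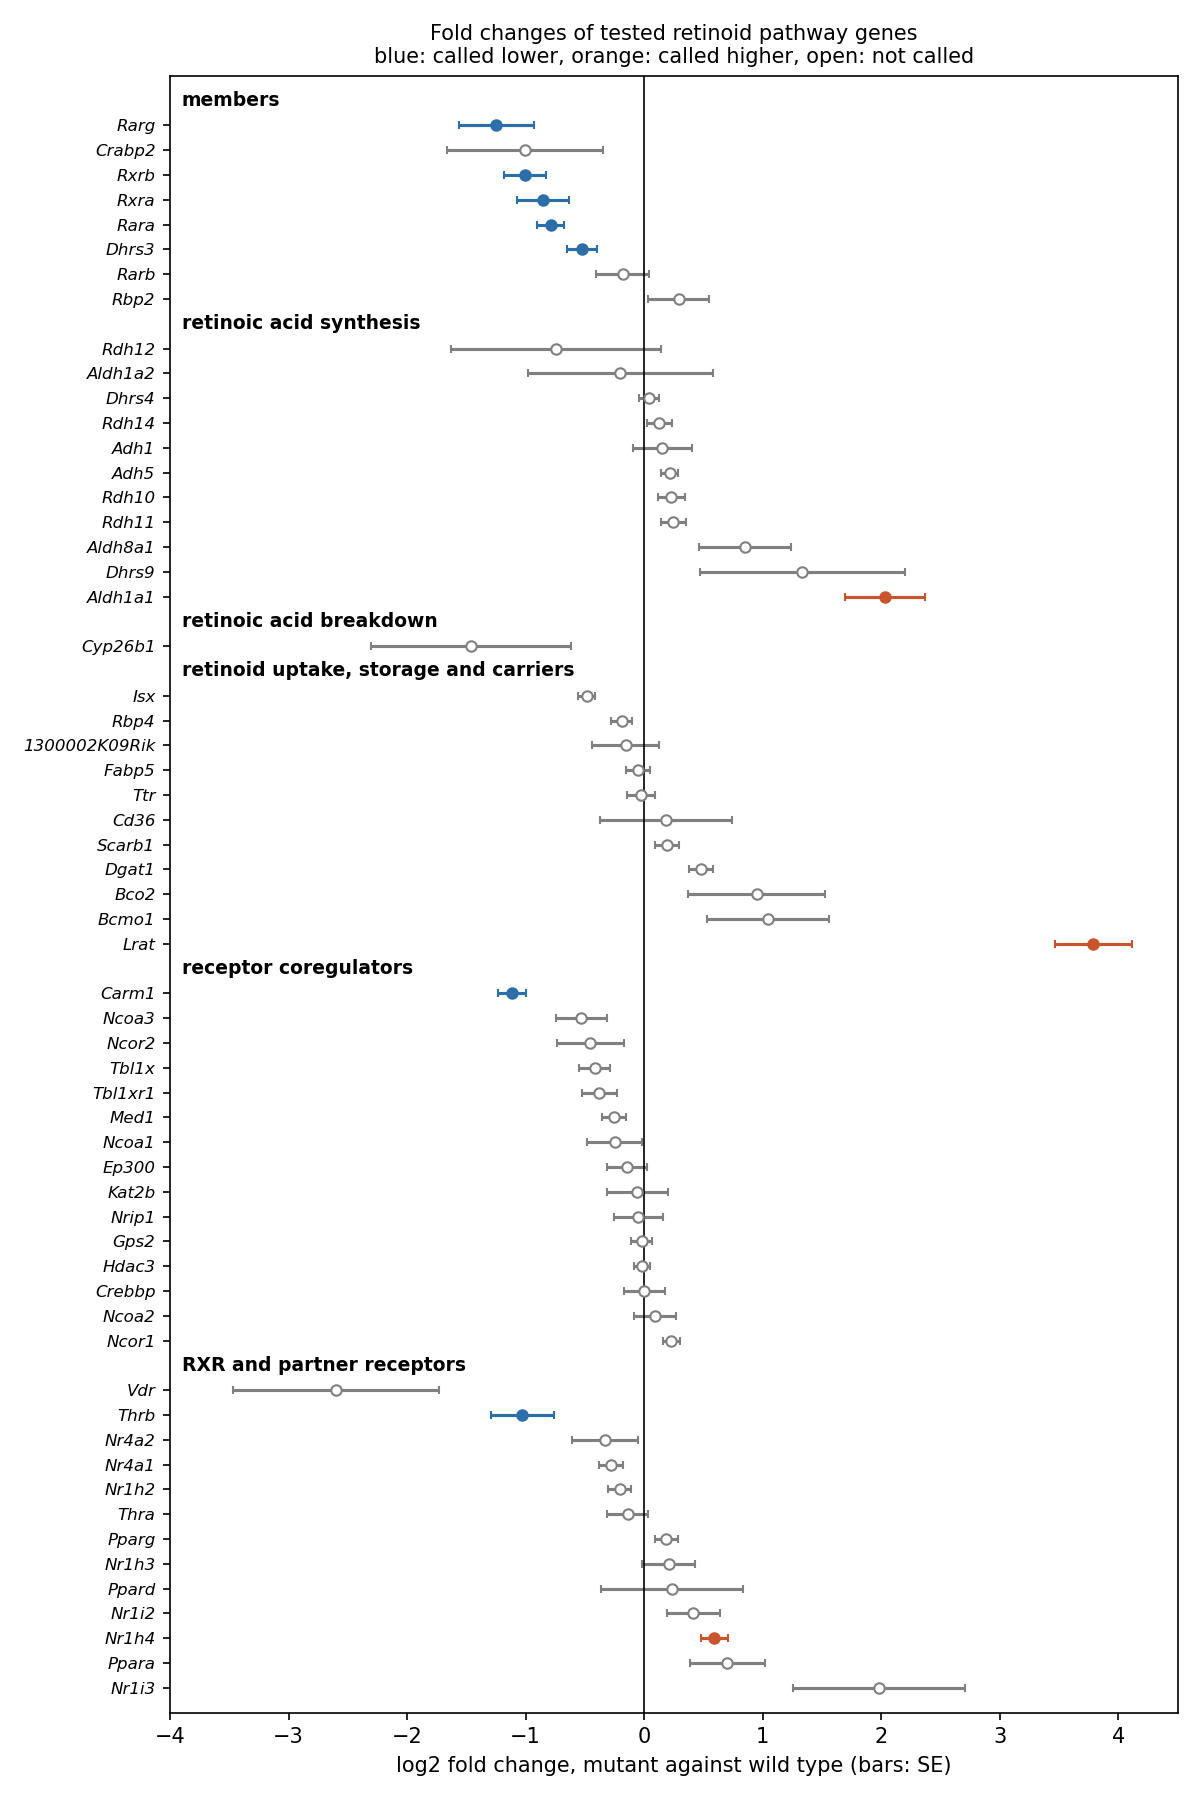
Points give the log2 fold change of mutant against wild type (horizontal axis) with bars for the SE, for the 8 tested members and tested genes of 5 pathway lists, leaving out 1 gene. Filled blue points are called lower, filled orange points higher and open points not called, with *Lrat* at 3.79 and *Aldh1a1* at 2.03 on the right and *Rarg* at -1.25 as the lowest called member.

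The pattern over the 6 libraries was also compared between each tested member and the other tested genes with a mean normalized count of at least 50. For each member past that count, which *Crabp2* is not, these were 10561 genes. The comparison is a description by Pearson's r of log2 CPM over 6 libraries, whose split by genotype all these genes share. *Rara* was most like *Trim26* and *Thap11* (r = 0.999 and 0.998), *Rxrb* like *Zmiz2* and *Frmd6* (0.999 and 0.997), and *Rxra* like *Slc22a17* and *Klhl17* (0.995 and 0.991). *Rarg* was most like *Sidt2* and *Map4k1* (0.994 and 0.991), and *Dhrs3* like *Il11ra1* and *Rgs19* (0.997 and 0.995). For the members that were not called, the nearest were *Nsun3* and *Ankrd37* for *Rarb* (0.988 and 0.969), *Pygo2* and *Mgat3* for *Crabp2* (0.996 and 0.995) and *Zfp511* and *Pnrc2* for *Rbp2* (0.997 and 0.994). None of these genes was another member of the list.

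The 5 falls also differed in how often their calls held when 1 library was left out or a setting changed. A fit without 1 library has fewer libraries in a group, so a lost call need not mean a smaller change. Without wild type 1 the *Rxra* call was lost at a log2 fold change of -0.85, as with all libraries. Over all genes, 405 to 867 were called lower in these fits, against 729. *Rara* and *Rxrb* were called in every fit that changed the tool, scaling, filter, length correction, block or libraries. *Rarg*, *Rxra* and *Dhrs3*, whose adjusted p values lay between 0.0057 and 0.0090, kept a negative log2 fold change in all of these fits, and each lost the call in some of them. The number of members called lower was 2 without wild type 1, wild type 2, mutant 1 or mutant 3, when *Rara* and *Rxrb* were left, 3 without mutant 2 and 5 without wild type 3. *Lrat* and *Aldh1a1* stayed called in all 6 fits without 1 library.

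**Figure D5:**
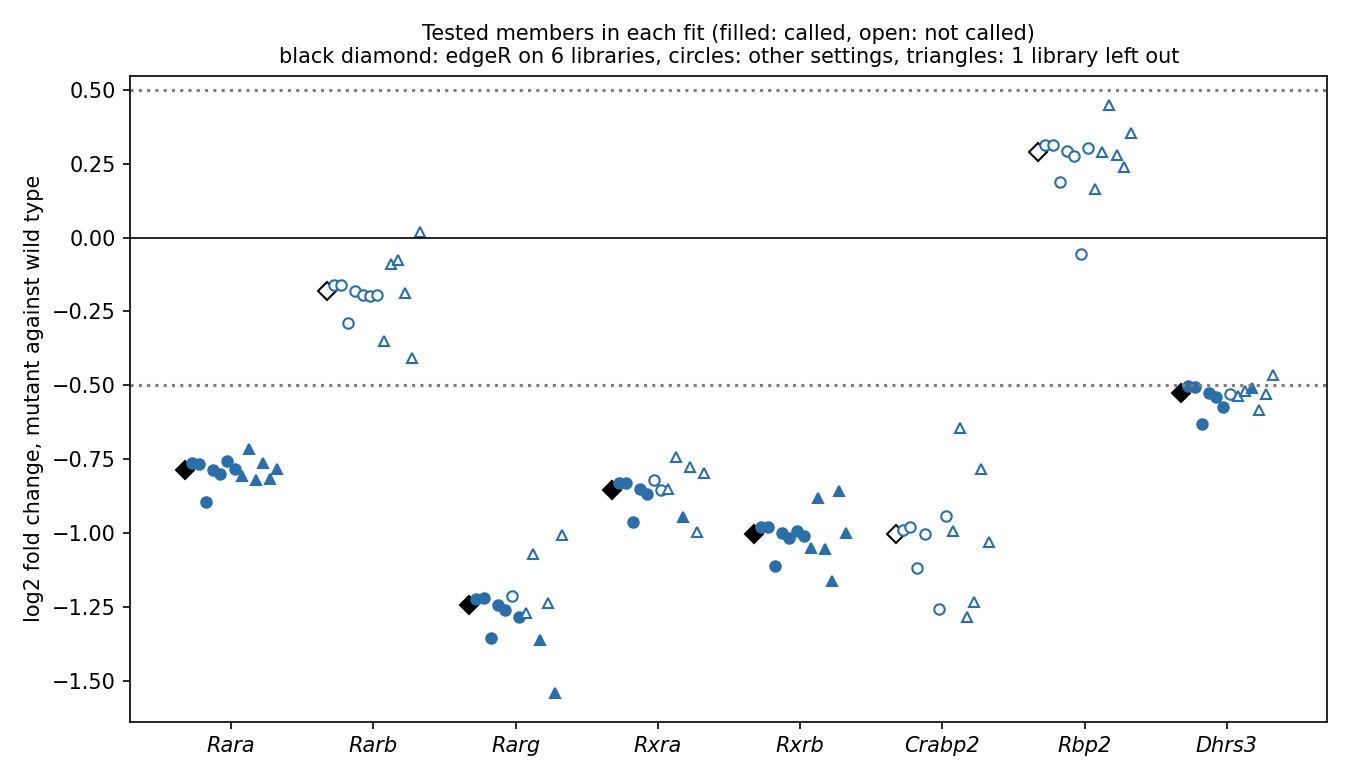
Points give the log2 fold change (vertical axis) of each tested member in 14 fits, 1 fewer for *Crabp2*, which the stricter filter on counts removed. The black diamond is edgeR on all 6 libraries, circles are other settings and triangles fits without 1 library, filled where the gene was called, and dotted lines mark the required size of 0.5 in either direction. *Rara* and *Rxrb* are filled throughout, and *Rarb* and *Rbp2* each cross 0 once.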

How the data were processed

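RNA-sequencing counts were used for 6 libraries, 3 mutant and 3 wild type. According to the paper's methods and the labels, the authors amplified cDNA from sorted cells over 15 cycles, aligned reads to mm9 using STAR 2.5.2b and, with featureCounts 1.5.1 and a UCSC gene model, counted those that mapped uniquely. The deposited values are raw read counts without normalization. Whether reads were counted by strand is not given in the sources used here, nor whether libraries came from separate litters, so p-values measure the spread between these libraries.

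The 9 genes and the pathway lists were chosen with earlier results of these data known. The quasi-likelihood test compared genotypes in edgeR 4.0.16 (R 4.3.3), after TMM scaling and removal of low counts by filterByExpr, and p-values were adjusted by the Benjamini-Hochberg method. The mean normalized count of at least 50 stands in for the RPKM limit in the study's methods, which is stated as at least 50. The 2 measures are not alike, and the count limit is the laxer one for these genes. By the RPKM computed here every member was under 50, the highest wild type mean being 12.1 for *Dhrs3*. Named genes are the 9 members, the called genes and the 2 tested genes of each list with the highest mean count, and a fixed set of defining retinoid genes. *Trim26* and the other genes compared by pattern are the 2 with the highest r for each member. Some genes that this rule names are not reported here. *Dgat1*, *Bcmo1* and *Scarb1* were named after their values were seen. Of the tested genes, 94.3% had an exon length, taken as the union of exons in GENCODE vM1 on NCBIM37, the same assembly as mm9. No exon of another annotated gene overlaps the 9 genes, and BLAST+ 2.17.0 found 0 other coding genes matching 50% or more of a member's longest transcript at 95% identity or above. Scripts were tested on simulated data. Alternatives were DESeq2 1.42.0, RLE or library-size scaling, 2 other filters, 3 other call rules, leaving out each library, a replicate block, and a loess fit (span 0.5) that removes a trend with gene length. Figures were drawn with matplotlib 3.10.9.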

Additional observations from a re-analysis of the deposited data

How the results depend on the processing

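The number of members called lower was 5 under DESeq2, RLE scaling, library size as the only scaling, both other filters and the call rules without a minimum fold change or count. It was 2 where a call needed a log2 fold change of 1 in either direction, 3 with the gene length correction, and 2 to 5 with each library left out. Over all genes, 200 were called higher with library size as the only scaling, 902 without a minimum log2 fold change and 85 with the limit of 1, where 284 were called lower, against 348 higher and 729 lower. With each library left out, 260 to 516 were called higher and 405 to 867 lower, the lower count being 405 when wild type 1 was left out, 406 for wild type 2 and 463 for mutant 2. Under library-size scaling alone, 17.3% of calls were higher, against 32.3%, and the median log2 fold change of all genes was -0.15, against -0.04. *Rbp2* turned to -0.057 with the gene length correction. With each library left out, the log2 fold change of *Rarb* lay between -0.41 and 0.020 and the difference in the *Rxrb* to *Rxra* ratio between -0.39 and 0.12. The cause of these changes was not tested.

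Same-numbered libraries did not deviate together (correlations of 0.0097, -0.045 and -0.018). These values, from 3 libraries a group, cannot show whether same-numbered libraries share a litter or batch. With the replicate block, 3 members were called lower, *Rxra* (adjusted p = 0.0106) and *Dhrs3* (0.0114) being just past the threshold of 0.01. Depth limits *Crabp1*, *Crabp2*, *Cyp26a1* and *Cyp26b1*, which have 62 summed counts or fewer in a group.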
